A study of Mus musculus with 3 samples.

Results

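The genes described here encode the proteins of mitochondrial respiration: the nuclear subunits of the 4 respiratory complexes, cytochrome c and the ATP synthase, with some of the factors that assemble them. They were taken as all probe sets, other than controls, with a single platform gene symbol that begins with Nduf, Sdha to Sdhd, Uqcr, Cox4 to Cox8, Cox10 to Cox19, Atp5, Cyc1, Cycs or Cyct, without use of any signal. This gave 109 of 12422 probe sets and 80 of 8251 named genes. Complex I had 29 genes, complex II 4, complex III 8, cytochrome c 2, complex IV 14 and the ATP synthase (complex V) 14. Another 8 are assembly factors, and Cox7a2l, a factor that joins complexes III and IV into supercomplexes, was kept apart. The same symbols also appear on 11 probe sets that list a second gene or pseudogene, and these were left out. Among them are both sets of Cox7c, which share the name of a pseudogene and read 19283, 19846 and 22824 on the one and 9176, 11943 and 8523 on the other.

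The RNA was total RNA of the neural retina at postnatal day 10, taken from wild-type littermates of Rp1-/- mice on a mixed 129/SvEv and C57BL/6 background, and was measured on Affymetrix U74Av2 arrays. Each of 3 samples was a pool of 3 to 4 animals, dissected from 1 to 2 pm, and the pools form 1 group with no contrast, so every value below is a description of 3 pools. The titles of pools 2 and 3 contain the letters rp1, while the descriptions call all 3 pools wild type, and the descriptions were followed. Nothing states that the pools came from different litters. Signals are the deposited linear intensities, and pool numbers only name the arrays. On each array a limit was set as the 90th percentile of 81 probe sets for 69 genes restricted to tissues such as liver, pancreas and skin, which was 398.9, 327.3 and 262.2 in pools 1, 2 and 3. A gene under it is called not above background, which does not mean silent. Named genes above it numbered 3689, 4186 and 4673 in pools 1, 2 and 3. Because the limit was lowest in pool 3, a gene above it there only can have as much signal in another pool. A brighter probe set does not mean a more abundant transcript.

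The respiratory chain passes electrons from NADH through complex I, or from succinate through complex II, to coenzyme Q, then through complex III and cytochrome c to complex IV, which reduces oxygen. Protons pumped on the way drive the rotary ATP synthase. In the retina these proteins are concentrated in the mitochondria of photoreceptor inner segments and of synaptic terminals, and the mature retina is among the most oxygen-demanding tissues of the body. Several subunits of complex IV, and cytochrome c, exist as general and as tissue-restricted isoforms made from separate genes.

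All 19 measured genes of a list of photoreceptor, inner retinal and Müller glia markers were above the limit on every array. This list was chosen with earlier results of these data known, so the count is no independent test of retinal identity. The pools were not alike in other tissue. The summed signal of 11 lens genes was 226816, 36700 and 423620 in pools 1, 2 and 3, and that of 6 red blood cell genes was 22226, 4955 and 15408. The Actb control, whose 3′ signal over its 5′ signal is a measure of RNA integrity, gave 1.20, 1.44 and 1.69, with pool 1 at the bottom and pool 3 at the top, and the Gapdh control gave 0.95, 0.88 and 0.93. In pooled tissue, fewer cells of a type and less RNA per cell cannot be told apart.

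Transcripts of respiration were widely measurable. Of the 80 genes, 56 (70.0%) exceeded the limit on all 3 arrays, 14 on 1 or 2 and 10 on none, where 41.6% of all named genes exceeded it on all 3. Their representative signals together made up 2.90, 3.30 and 3.25% of the summed signal of all named genes in pools 1, 2 and 3. That summed signal includes the lens genes, at 226816, 36700 and 423620, so the order of these shares depends partly on lens signal. On average over the pools, 63 of the 80 were above the limit. The complexes were covered unequally: 24 of 29 complex I genes, 8 of 8 complex III genes and 10 of 14 ATP synthase genes were above the limit on all arrays, against 6 of 14 complex IV genes and neither cytochrome c gene. The complex IV share, 42.9%, was near the 41.6% of all named genes. The complex IV and cytochrome c genes counted include muscle or testis isoforms, so their counts are not of general subunits alone.

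The core of complex I, the part conserved from bacteria that carries the flavin and iron-sulfur clusters, was represented by 4 genes, all above the limit in every pool. Ndufv1, which binds NADH and the flavin, read 5786, 5742 and 7521. Ndufv2, an iron-sulfur protein beside it, read 3256, 3977 and 2685, and Ndufs1, which holds several of the clusters, read 1569, 1917.5 and 1575.5. Ndufs3, a core subunit of the arm that leads to coenzyme Q, read 2872.5, 2477 and 2963. The highest pool differed between them, being pool 3 for Ndufv1 and Ndufs3 and pool 2 for Ndufs1 and Ndufv2, and no range exceeded 1.48-fold.

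The accessory subunits, which surround the core and stabilise it, numbered 25, of which 20 were above the limit on every array. Among these the closest between pools was Ndufa3, at 3094, 3229.8 and 3092, a 1.04-fold range. Ndufab1, the mitochondrial acyl carrier protein, was next, at 1705, 1823.5 and 1825. Ndufa10 read 588.8, 544.7 and 564.5 and Ndufb10 read 2575, 2476 and 2275. In these 4 genes the pools lay within 1.13-fold of each other.

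The widest ranges among complex I genes measured in all pools were those of Ndufb7 and Ndufc1. Ndufb7, on the intermembrane side of the membrane arm, read 3969, 2495.5 and 3576.5, a 1.59-fold range with the lowest signal in pool 2. Ndufc1 read 1408, 2183 and 1758, a 1.55-fold range with the lowest in pool 1. The order of the pools was therefore not shared. Ndufb8 read 4505, 3232 and 3845 and was lowest in pool 2 like Ndufb7. Ndufa2 read 1093, 1670.5 and 1425 and followed the order of Ndufc1, with pool 2 highest. Ndufb6, at 3205, 3402 and 4803, stood out in pool 3 alone.

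Other accessory subunits of the membrane arm were strongly measured. Ndufb5 had a signal of 7461 ± 1060.2, Ndufb2 of 5703 ± 901.0, Ndufb11 of 2914 ± 341.0 and Ndufb9 of 2169.9 ± 250.9 (SD, n = 3), and all 4 were lowest in pool 1. Ndufb3 was instead lowest in pool 3, at 1461.5, 1474.5 and 1096. Around the matrix arm, Ndufa7 had a signal of 5474 ± 360.0, Ndufa5 of 2653 ± 244.6 and Ndufa9 of 2476 ± 273.3 (SD, n = 3). Ndufa8, which lies on the intermembrane side, had a signal of 1222 ± 191.8 (SD, n = 3). Ndufa13, also known as GRIM-19, read 1334, 1465.5 and 1600.0. Ndufv3, which binds near Ndufv1, read 1070.1, 875.2 and 840.4 and was highest in pool 1.

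Several complex I genes were near or under the limit although their products are part of the complete complex. Ndufs4, whose loss causes a mitochondrial encephalopathy in mice, read 165.4, 185.4 and 254.4 and was above the limit in no pool. The same held for Ndufa12, at 65.9, 73.9 and 70.7, and Ndufc2, at 207.3, 201.7 and 229.1. Ndufa6 exceeded the limit in pools 2 and 3 only, at 360.3, 613.4 and 548.1, so that pool 2 was at least 1.54-fold above pool 1. Ndufa1, an X-linked membrane subunit, read 187.2, 352.6 and 256.8 and exceeded it in pool 2 only. The signals of Ndufa12 and Ndufc2 were close between pools, with SDs of 0.083 and 0.097 on the log2 scale. Whether these probe sets detect their transcripts well was not tested.

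Complex II, the succinate dehydrogenase that also belongs to the citric acid cycle, had all 4 of its subunits on the array. Sdhb, the iron-sulfur subunit, read 2433, 2028 and 1984. The membrane anchors were Sdhc, at 2556, 2590.3 and 3011, and Sdhd, at 2632, 2459 and 1360.1. The anchors did not move together, since Sdhc was highest in pool 3 whereas Sdhd was 1.94-fold lower there than in pool 1. Sdha, the flavoprotein that oxidises succinate, read 199.6, 280.5 and 259.9 and was not above the limit in any pool.

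Complex III was above the limit in every pool for each of its 8 genes on the array. Cyc1, cytochrome c1, had 2 probe sets above the limit, of which the brighter read 8046, 6730.3 and 6882 and the other 3851, 3321 and 3043, both highest in pool 1. The core proteins differed from each other: Uqcrc1 read 3497.5, 2589 and 3156, with pool 2 lowest, and Uqcrc2 read 1812, 3227 and 2711, with pool 2 highest and a 1.78-fold range. The Uqcrc2 probe set carries the _f_at suffix, given to sets that can match several related sequences. It is 1 of 21 member sets with that suffix. The representative sets of Ndufa3, Ndufb2, Ndufb5, Uqcrb, Cox6a1, Cox6b2, Cox6c, Atp5d, Atp5g2, Atp5md and Sdhaf1 also carry it. The 5 small subunits were highest in pool 3. Uqcrh, the hinge protein that docks cytochrome c, read 3155, 3595 and 4483, and Uqcrq read 7176, 6208 and 9684.5. Uqcr10 read 2258, 2791 and 3231 and Uqcr11 read 1546, 1339.5 and 2345, a 1.75-fold range. Uqcrb, which lies on the matrix side, read 3160.5, 3852 and 4114. Pool 1 was lowest for Uqcrh, Uqcr10 and Uqcrb, and pool 2 for Uqcrq and Uqcr11.

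**Figure D1:**
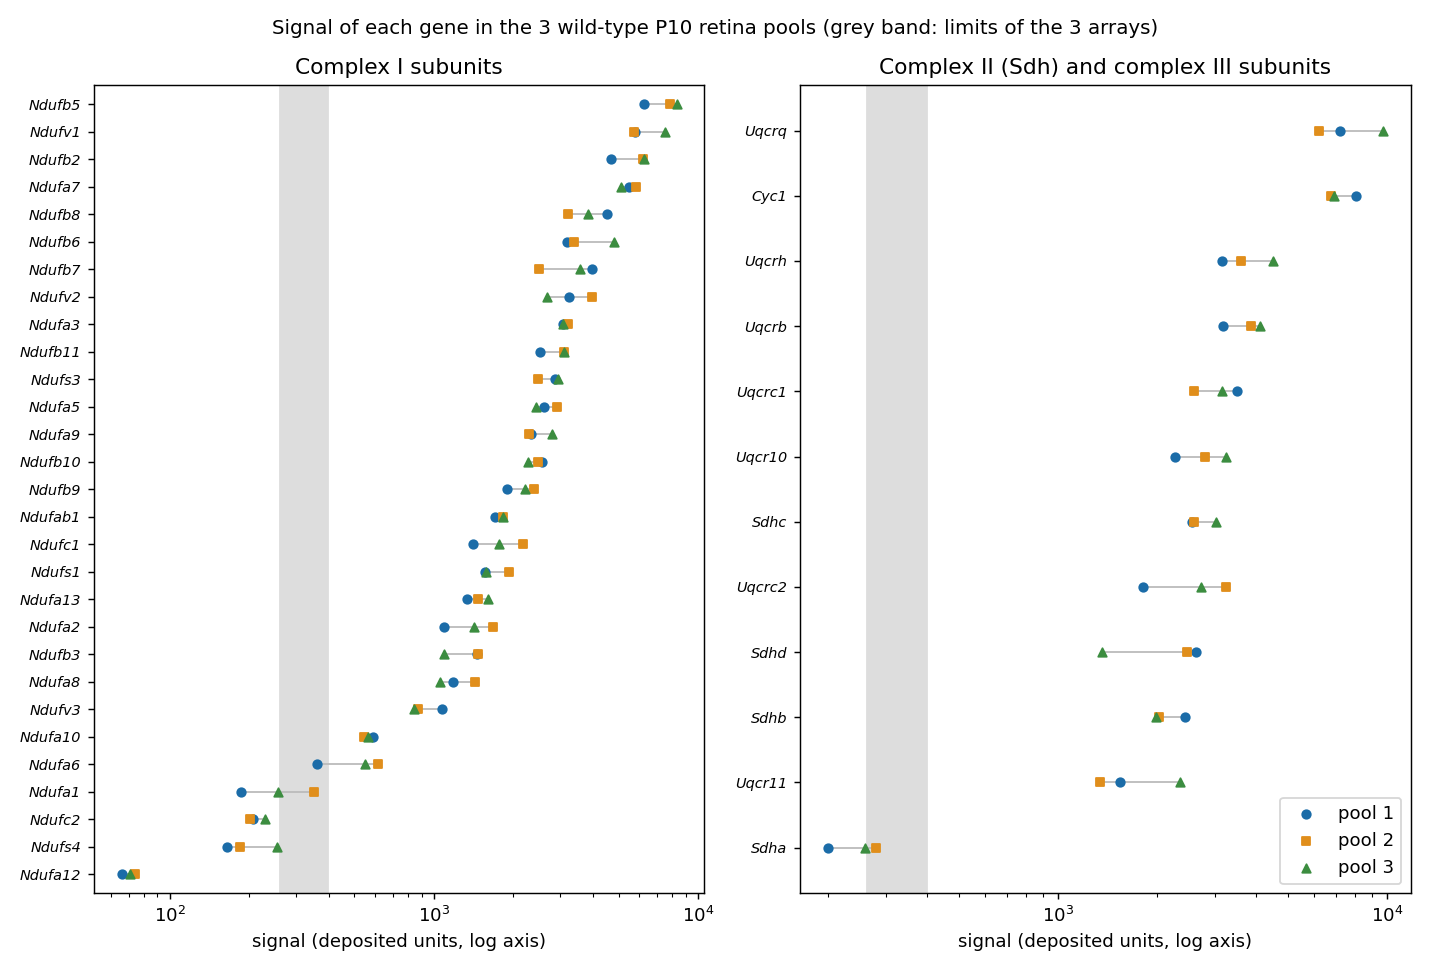
Signal (deposited units, log axis) of each complex I gene (left) and each complex II and III gene (right) in pools 1, 2 and 3, ordered by mean signal, which is no order of transcript amount between genes. The grey band spans the limits of the 3 arrays, 262.2 to 398.9. Of the complex I genes 24 lie to its right in every pool, as do all 8 complex III genes and 3 of 4 Sdh genes.

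Cytochrome c carries electrons from complex III to complex IV. The probe set of Cycs, the somatic form, read 195.9, 309.7 and 482.6 and exceeded the limit in pool 3 only, where it was at least 1.21-fold above pool 1. The probe set of Cyct, the testis form, read 48.2, 28.4 and 19.7 and was not above the limit in any pool.

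Of the complex IV genes 6 were above the limit in every pool, 5 in some and 3 in none. Cox6c, a small membrane subunit, had a signal of 10363 ± 2189.9 and Cox6a1, the general form of subunit VIa, of 10086 ± 2876 (SD, n = 3). Cox6a1 had the widest range of the 6 genes measured in all pools, 1.77-fold, at 9735, 7401 and 13120.5. Cox7b followed, at 1854, 2911 and 2878, a 1.57-fold range with pool 1 lowest. Cox5b, which binds zinc on the matrix side, was the closest, at 4346, 4320.3 and 3879. Cox7a2, the general form of subunit VIIa, read 6742.5, 7465 and 6565. These 2 varied by no more than 1.14-fold and were lowest in pool 3.

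The genes near or under the limit included subunits that are present in the enzyme of every tissue. Cox4i1, the general form of subunit IV, read 245.1, 297.6 and 320.8 on its representative probe set and 130.8, 285.5 and 352.9 on a second one, and exceeded the limit only in pool 3 on both. Cox5a, partner of Cox5b, read 160.7, 215.5 and 292.2 on the brighter set and 103.3, 115.3 and 134.3 on the other, above the limit only in pool 3 and only on the brighter. Cox6b1, which faces the intermembrane space, read 383.2, 474.5 and 388.2 and exceeded it in pools 2 and 3. Cox4i1 and Cox5a, on both sets of each, were lowest in pool 1 and highest in pool 3.

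Isoform pairs were compared only against the limit, since probe sets differ in brightness. Of the heart and skeletal muscle forms, Cox6a2 read 56.1, 76.0 and 30.5 and Cox7a1 7.20, 44.6 and 137.3, neither above the limit in any pool, while the general forms Cox6a1 and Cox7a2 were above it in all. The muscle form Cox8b lay at the limit, at 389.3, 311.0 and 382.2 on one set, above it only in pool 3, and 137.2, 136.0 and 159.7 on the other. In the muscle marker list, 4 of 27 measured genes exceeded the limit in every pool and 18 in none, and the summed signal was 5459, 5874 and 5274. Acta1, skeletal muscle actin, read 94.7, 73.7 and 114.2 and was above the limit in no pool. Ckm, muscle creatine kinase, read 92.4, 97.4 and 544.7 and exceeded it in pool 3, and Actc1, cardiac actin, read 644.6, 606.7 and 382.1 and exceeded it in all.

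Subunit VIII passed the limit through a probe set of its testis form. Cox8a, the general form, read 18.0, 47.7 and 107.2 and was not above the limit in any pool, whereas the brighter probe set of Cox8c, the testis form, read 1459, 1466 and 1673, above it in all 3. A second Cox8c set read 8.10, 28.4 and 9.20 and was above it in none. The testis form of subunit VIb, Cox6b2, read 198.9, 304.9 and 395.0 on the brightest of its 3 sets and exceeded the limit in pool 3 only. In the germ cell marker list 9 of 14 genes were above the limit on no array, among them the protamine genes Prm1, at 33.1, 132.9 and 74.1, and Prm2, at 101.3, 84.3 and 134.2. Tnp1, a transition protein gene, was the 1 member above it on all, at 752.0, 765.7 and 735.3. Which transcript the bright Cox8c set detects was not tested.

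The ATP synthase had 4 genes of its F1 part. On their representative sets all 4 were above the limit in every pool and highest in pool 3. Atp5a1, the alpha subunit, read 7632, 7677 and 10142. Atp5c1, the gamma subunit that forms the rotating shaft, read 5120.5, 5723 and 5730.1, a range of 1.12-fold, the smallest of the complex V genes above the limit on all arrays. A second Atp5c1 set read 3271, 3702 and 2740.2 and was lowest in pool 3, against the first. Atp5e, the epsilon subunit, read 1228, 1108 and 1994. Atp5d, the delta subunit, had 5 probe sets. The representative one read 447.6, 583.3 and 877.3, a 1.96-fold range that was the widest of the 56 genes above the limit everywhere, another read 441.0, 549.6 and 576.0, and yet another read 698.8, 222.7 and 582.2 with the lowest value in pool 2. The other 2 sets of Atp5d were under the limit on all arrays, so the Atp5d order depends on the set chosen.

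The c ring of the membrane part, which turns as protons pass, was seen through 2 of the genes that encode 1 mature protein. Atp5g2 read 704.5, 920.2 and 815.1 and was above the limit in all pools, and its second set read 101.1, 56.3 and 41.0 and was above it in none. Atp5g1 read 265.1, 275.0 and 287.9 and exceeded the limit in pool 3 only, although its signals lay within 1.09-fold, because the limit was lowest on that array.

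Stalk and membrane subunits outside the ring numbered 8, of which 5 were above the limit in every pool. Atp5o, which tops the peripheral stalk, read 3029.9, 4502 and 4486. Atp5j, coupling factor 6 of the same stalk, read 2865, 2885 and 1528, a 1.89-fold range with pool 3 lowest. The subunits that join synthases into dimers in the cristae included Atp5l, at 7179, 7063 and 9028, and Atp5md, at 7401, 8319 and 9952. Atp5mpl, a small proteolipid, read 6225, 8169 and 10349.6. Except for Atp5j and Atp5o, the genes of this group above the limit in every pool were highest in pool 3.

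The remaining 3 of these genes lay near or under the limit. Atp5pb, the b subunit of the stalk, read 289.1, 228.8 and 450.2 and exceeded the limit in pool 3 only, at least 1.38-fold above pool 2. Atp5k, the e subunit, read 408.6, 314.0 and 304.5 and exceeded it in pools 1 and 3. Atp5j2, the f subunit, read 56.9, 156.0 and 218.9 and was above it in none.

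Of the 8 assembly factors, 4 were above the limit in every pool, 3 in some and 1 in none. Cox17, which hands copper to the assembly of complex IV, read 1052, 1830.2 and 1991, a 1.89-fold range with pool 1 lowest. Cox18, which moves part of a mitochondrially made complex IV subunit across the membrane, read 1362, 1161 and 1256. Cox16 read 558.9, 655.3 and 780.5, and Cox14 read 148.0, 31.1 and 192.5 and was not above the limit in any pool. Sdhaf1, which serves iron-sulfur insertion into Sdhb, read 914.9, 1473 and 1073.5, and Sdhaf2, which serves the flavin of Sdha, read 335.7, 392.8 and 384.3, above the limit in pools 2 and 3. Ndufaf1, an early complex I assembly factor, read 378.0, 347.3 and 323.8, above the limit in pools 2 and 3 although highest in pool 1. Ndufaf4 read 214.6, 434.3 and 354.6 and was the 1 gene with a range over 2-fold among the 63 above the limit on average. That range of 2.02-fold rests on a pool 1 signal under the limit, and as a bound pool 2 was at least 1.09-fold higher. Cox7a2l read 1098, 1353 and 1593, lowest in pool 1 and highest in pool 3.

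**Figure D2:**
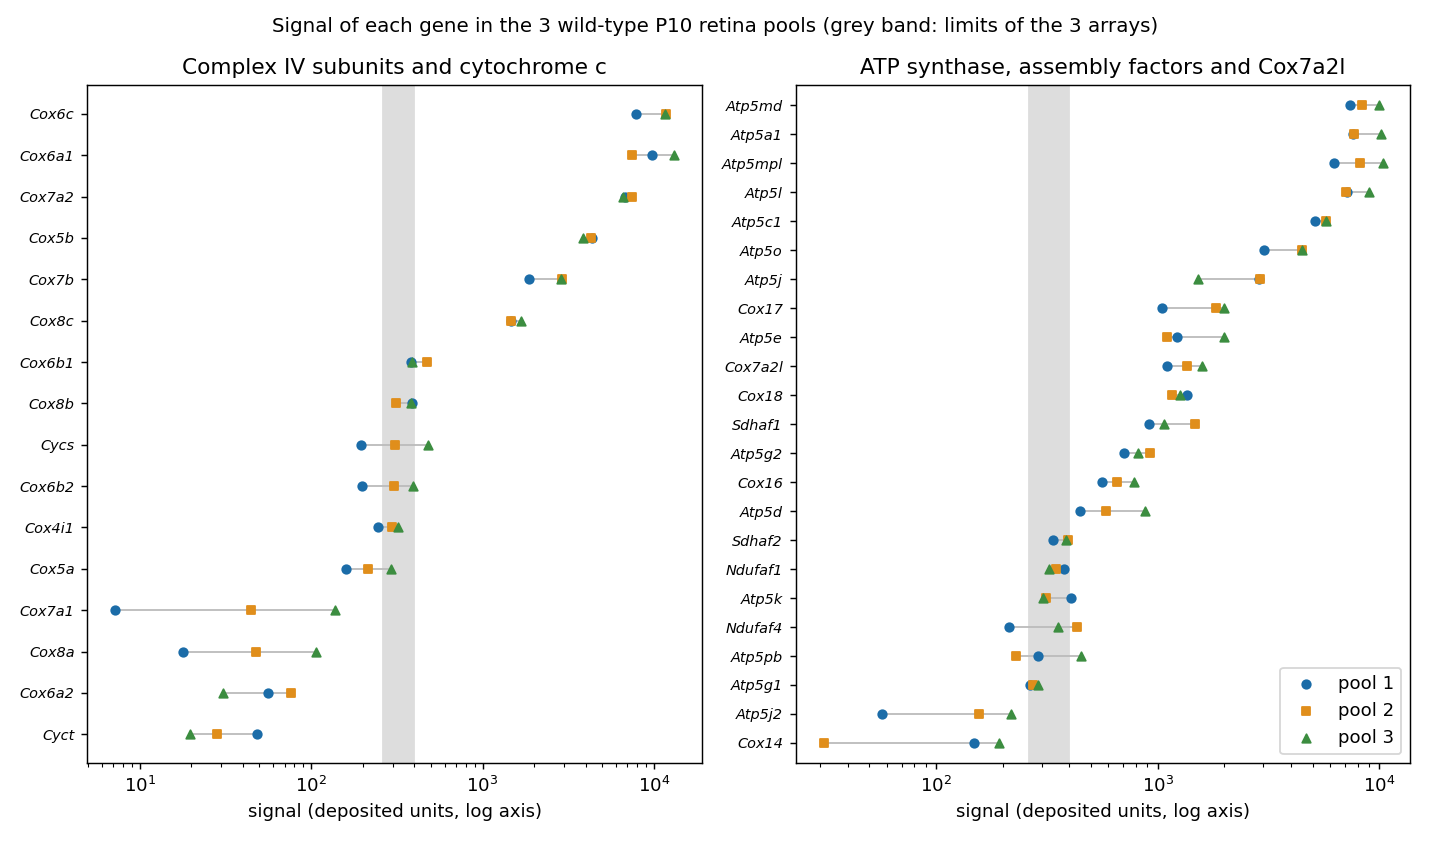
Signal (deposited units, log axis) of each complex IV and cytochrome c gene (left) and each ATP synthase gene, assembly factor and Cox7a2l (right) in pools 1, 2 and 3, ordered by mean signal, which is no order of transcript amount. The grey band spans the limits of the 3 arrays. Only 6 of 14 complex IV genes lie to its right in every pool, with Cox8c among them and Cox8a far to its left.

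Where a gene had several probe sets, these often disagreed. Of 22 such genes, with 51 sets in all, 10 had 1 set or more above the limit on every array and 1 set or more above it on none, and in 2 (Atp5c1 and Cyc1) all sets were above it on every array. In 4 genes at least 2 sets passed everywhere. Cox6c read 7835, 11681 and 11572 on 1 set and 129.8, 71.4 and 80.9 and 43.8, 50.4 and 7.40 on the others. Ndufb2 had 2 bright sets, at 4663, 6190.5 and 6255 and 4068, 4524 and 7082, and 2 that read at most 30.0 in any pool. The second sets of Ndufb10, at 22.6, 38.8 and 24.8, Ndufb6, at 28.7, 146.4 and 49.8, and Ndufb7, at 92.9, 35.4 and 115.0, were above the limit in no pool. The second sets of Atp5l, at 104.4, 91.4 and 141.2, and of Cox18, at 46.3, 99.2 and 87.3, were likewise under it. Those of Ndufa3, at 39.8, 379.7 and 286.5, and Ndufv2, at 321.6, 447.8 and 349.0, passed the limit in pools 2 and 3. In 8 genes no set was above the limit on every array. Among these, the dimmer sets of 4 genes not yet given were above it in no pool: Ndufa1, at 8.70, 103.0 and 26.4, Ndufaf1, at 106.1, 151.8 and 60.7, Ndufaf4, at 1.60, 41.0 and 7.40, and Atp5g1, at 112.5, 108.9 and 99.8.

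**Figure D3:**
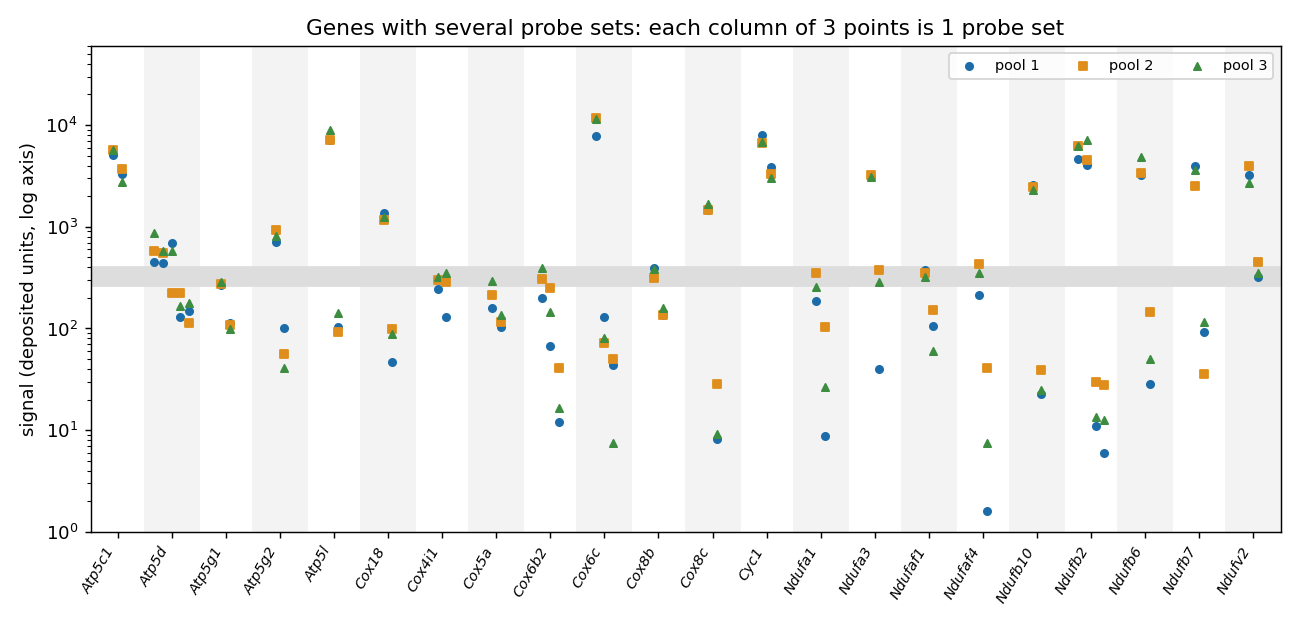
Signal (deposited units, log axis) of every probe set of the 22 genes with more than 1, with pools 1, 2 and 3 as points and each column of points 1 probe set. The grey band spans the limits of the 3 arrays. Within Cox6c, Cox8c, Ndufb2 and Ndufb10 the sets lie on both sides of the band.

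The spread between pools was close to that of other genes of like signal. The median SD over all 80 genes was 0.24 on the log2 scale, and over all named genes it was 0.38. Signal and spread are related, so the bright genes were set side by side: the 51 respiratory genes with a mean signal over 1000 had a median SD of 0.22, and all 1589 named genes over 1000 had 0.23. Large ranges were few. Of the 63 genes above the limit on average, 1 (1.59%) had a range over 2-fold, where 12.1% of the 4171 named genes above it on average did. Over a signal of 1000 the counts were 0 of 51 and 130 of 1589 (8.18%). By complex, the median range of genes above the limit on average was 1.27-fold for complex I, 1.43-fold for complex III, 1.24-fold for complex IV and 1.34-fold for the ATP synthase. With the genes under the limit included, that of complex IV was 1.53-fold, and the others were 1.27-fold, 1.43-fold and 1.41-fold for complexes I and III and the ATP synthase.

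**Figure D4:**
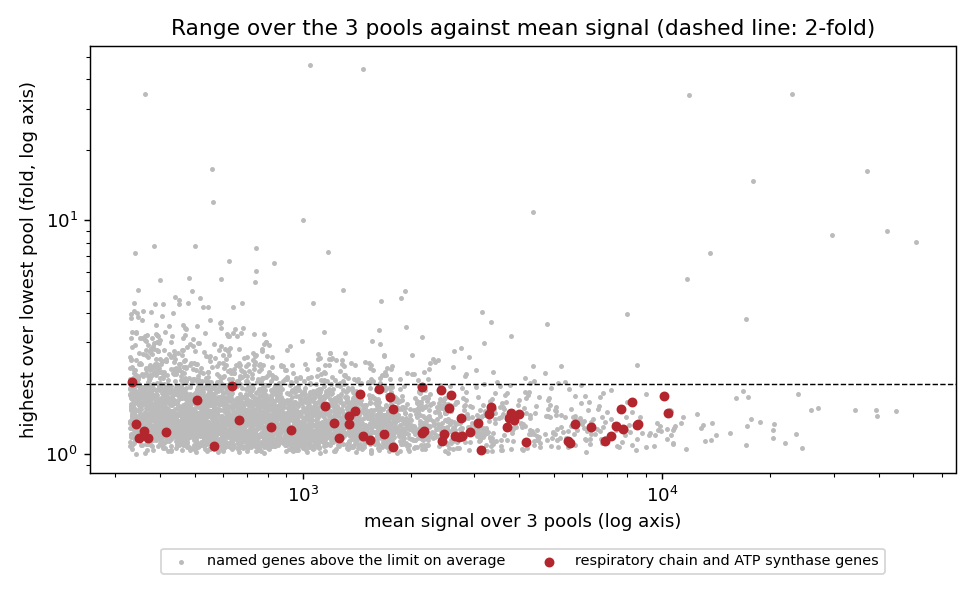
Range over the pools, as the highest over the lowest signal (fold, log axis), against the mean signal over 3 pools (log axis) for 4171 named genes above the limit on average (grey) and the 63 respiratory genes among them (red). The dashed line marks 2-fold, and 1 red point, Ndufaf4, lies above it at 2.02-fold.

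Pool 1 was more often the lowest pool for these genes than for named genes at large. Of the 63 above the limit on average, 33 were lowest in pool 1, 15 in pool 2 and 15 in pool 3, where 28.5%, 35.4% and 36.1% of the 4171 named genes were. The highest signal fell in pool 1 for 14, in pool 2 for 23 and in pool 3 for 26, against 34.3%, 33.3% and 32.4%. Over all 80, those under the limit included, pool 1 was lowest for 45 and pool 3 highest for 38, where 35.8% and 33.6% of all 8251 named genes were. Over the 80 the median deviations in pools 1, 2 and 3 were -0.12, 0.032 and 0.11 on the log2 scale, and over the 8251 they were -0.027, 0.052 and 0.00017. In shares of the 63, pool 1 was lowest for 52.4% and pool 3 highest for 41.3%. Over the 63, the median deviation from a gene's own mean was -0.11, 0.032 and 0.098 on the log2 scale in pools 1, 2 and 3, and for the 4171 genes it was 0.027, -0.0051 and -0.012. Taken by pairs, 41 of 63 were lower in pool 1 than in pool 2, 41 lower in pool 1 than in pool 3, and 33 lower in pool 2 than in pool 3, with 47.2%, 47.0% and 49.3% of the 4171 named genes.

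The counts moved with the scaling, and those over named genes moved with them. With the arrays brought to one median, pool 1 was lowest for 26 of 63 genes (41.3%) and for 21.7% of named genes, with median deviations in pool 1 of -0.051 and 0.084 on the log2 scale. After quantile normalization it was lowest for 37 of 64 (57.8%) and for 31.0% of named genes, with median deviations of -0.11 and 0.0073. Under each of the 3 scalings pool 1 was lowest for a larger share of the respiratory genes than of named genes. The 3′ to 5′ ratio of Actb also had pool 1 lowest and pool 3 highest. That of Gapdh, at 0.95, 0.88 and 0.93, had pool 1 highest and pool 2 lowest. The part of RNA integrity in the result was not tested. The retina marker list, with 19 of 19 above the limit, had the same order in its summed signal, 104141, 107529 and 138451. Its median deviations were -0.088, 0.00046 and 0.071. Its genes were split: pool 1 was lowest for 9 and pool 3 highest for 10, while 5 were lowest in pool 3. Part of the rise in the sum came from Gnat1, at 1014.7, 1101 and 10970. Other parts came from Sag, at 22066, 24853.5 and 34554, and from Rcvrn, at 3145.5, 2429 and 8726. The part of this list in the result was not tested either. Of 12 measured endothelial and mural genes, 3 were above the limit on every array and 8 on none. Pool 1 was lowest for 8 of the 12 and pool 3 highest for 9, and their summed signal was 2871, 2719 and 4481. The 7 pigment epithelium and melanocyte genes, of which 5 were above the limit on no array, summed to 1198, 1836 and 1921, lowest in pool 1 and highest in pool 3. By gene, pool 1 was lowest for 3 of the 7 and pool 2 highest for 4. The microglia and leukocyte genes summed to 3666, 3415 and 3262.5 and the muscle genes to 5459, 5874 and 5274, both lowest in pool 3. The germ cell genes, at 2290, 2929 and 2736, were lowest in pool 1 and highest in pool 2. The part of these lists was not tested. Lens and red blood cell signals had another order, with pool 2 lowest in both.

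Medians are given for the complexes with 5 or more genes. Among genes above the limit on average, the median deviations of complex III were -0.18, -0.070 and 0.20 in pools 1, 2 and 3, and those of the ATP synthase -0.18, -0.030 and 0.23. For complex I they were -0.065, 0.077 and 0.033, with pool 2 the highest for 12 of 25 genes. For complex IV they were -0.052, 0.080 and 0.11 over 8 genes. With the arrays at one median, the pool 1 median, genes under the limit included, went from -0.076 to -0.019 for complex I and from -0.12 to -0.059 for all 80. The assembly factors, 7 genes, had -0.24, 0.086 and 0.054. Pool 3 was highest for 5 of 8 complex III genes and 7 of 11 ATP synthase genes, and whether the complexes differ was not tested.

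**Figure D5:**
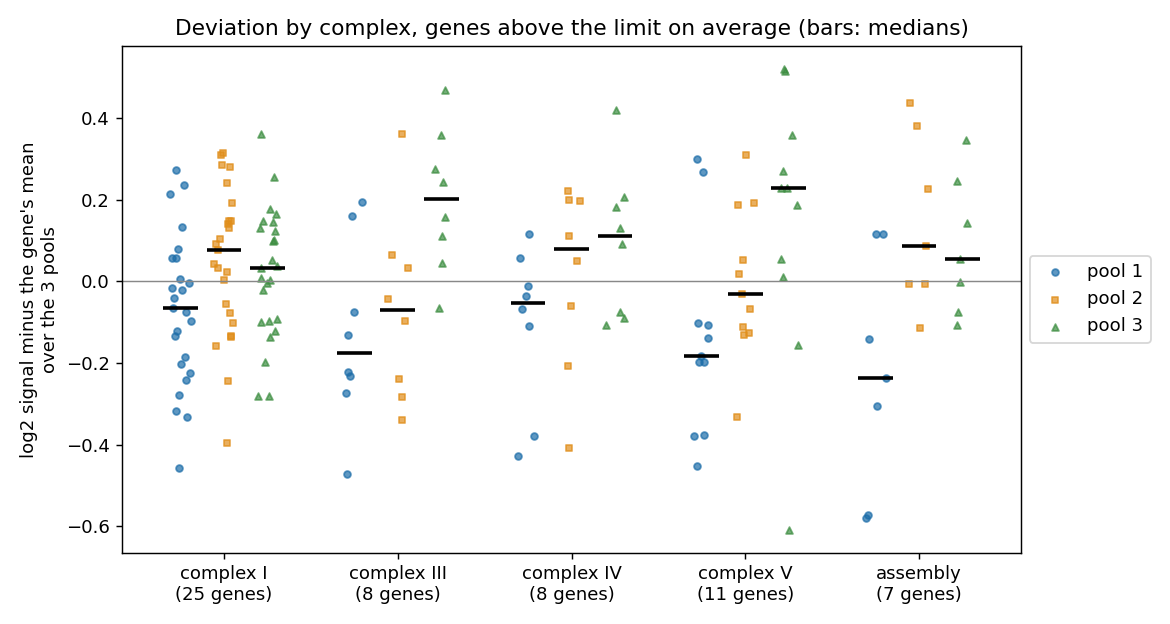
Log2 signal minus the gene's own mean over the 3 pools, for each gene above the limit on average, by complex and pool, with a bar at each median. The bars of complex III and the ATP synthase lie below 0 in pool 1 and above 0 in pool 3, and single genes of every complex lie on both sides in each pool.

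The promoters of these genes were searched for letters known as sites of nuclear factors of respiration. A RefSeq table (GRCm38.p6) held windows of 250 bases before to 50 after the gene start for 64 of the 80 genes. NRF-1, an activator of many respiratory genes, is known to bind GCGCA followed, after 1 free base, by GCGC. On either strand this motif was found for 12 of 64 genes (18.8%), and for 1254 of 17491 protein-coding genes in the table (7.17%) and 655 of 6572 genes of the array (9.97%). The ETS core CCGGAAG, read by GABP, was found for 20 of 64 (31.3%), against 12.9% of protein-coding genes and 17.1% of genes of the array. AAGATGGC, a core read by YY1, was found for 8 of 64 (12.5%), against 3.57% and 4.61%. In Atp5j2, Ndufa3, Ndufa9, Ndufb8, Ndufc1 and Ndufs4 it began at positions 23 to 39 after the gene start. The part of that position in the share was not tested. TCAAGGTCA, read by the ERR receptors, was found for 1 of 64 (1.56%), Sdhd, against 0.377% and 0.304%. No copies of different motifs overlapped in these windows. The 12 genes with the NRF-1 letters were Atp5c1, Atp5g2, Atp5k, Atp5o, Cox6a1, Ndufa5, Ndufa6, Ndufa8, Ndufaf4, Sdha, Sdhd and Uqcrc1. Of the 11 above the limit on average, pool 1 was lowest for 5, and of 38 such genes with a window but without these letters, for 17. A match is a description of the letters, not of binding.

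The windows with more than 1 copy of the NRF-1 motif are shown, and that of Sdhd, which held 3 of the 4 motifs, with the NRF-1 letters in capitals and the gene start after base 250. Cox6a1 (chr5:115348909-115349208, minus strand) has copies that begin at positions -162 and -117 from the start, Sdha (chr13:74350191-74350490, minus strand) at -98, -55 and -10, Uqcrc1 (chr9:108936398-108936697, plus strand) at 6 and 31 after it, and Sdhd (chr9:50603800-50604099, minus strand) at -79. Of these genes Sdha was the 1 not above the limit.
Cox6a1: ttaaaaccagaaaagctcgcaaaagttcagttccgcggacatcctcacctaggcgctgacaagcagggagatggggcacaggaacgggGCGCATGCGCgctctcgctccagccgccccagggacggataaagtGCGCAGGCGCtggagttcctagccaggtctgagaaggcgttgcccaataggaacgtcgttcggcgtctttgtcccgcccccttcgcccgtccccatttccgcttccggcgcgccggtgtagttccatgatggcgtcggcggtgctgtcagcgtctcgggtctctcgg
Sdha: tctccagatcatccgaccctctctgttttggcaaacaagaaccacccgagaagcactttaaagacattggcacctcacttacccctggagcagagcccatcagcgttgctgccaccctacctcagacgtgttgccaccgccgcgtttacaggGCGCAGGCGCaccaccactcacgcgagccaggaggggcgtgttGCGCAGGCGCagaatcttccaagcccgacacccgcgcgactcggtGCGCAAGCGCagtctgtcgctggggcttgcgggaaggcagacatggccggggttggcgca
Uqcrc1: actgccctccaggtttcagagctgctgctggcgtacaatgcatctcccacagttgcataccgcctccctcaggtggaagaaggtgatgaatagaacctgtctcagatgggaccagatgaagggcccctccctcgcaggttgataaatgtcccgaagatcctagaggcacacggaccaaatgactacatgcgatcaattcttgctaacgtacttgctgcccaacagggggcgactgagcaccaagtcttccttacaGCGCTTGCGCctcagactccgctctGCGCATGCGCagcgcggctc
Sdhd: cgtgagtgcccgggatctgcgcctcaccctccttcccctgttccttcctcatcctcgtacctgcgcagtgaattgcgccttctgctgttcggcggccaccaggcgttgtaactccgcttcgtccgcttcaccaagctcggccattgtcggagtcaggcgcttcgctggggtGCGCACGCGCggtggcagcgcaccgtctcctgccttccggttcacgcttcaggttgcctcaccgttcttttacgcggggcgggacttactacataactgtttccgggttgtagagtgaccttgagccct

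Genes that work beside the respiratory chain were read from lists written for this purpose. None of the 13 mitochondrially encoded subunits was found under its name, and they were not analysed here. Of 10 measured assembly factors outside the rule, 8 were above the limit on all arrays, among them Surf1, a complex IV factor, at 566.0, 734.4 and 1032, Lrpprc, which stabilises mitochondrial messenger RNA, at 522.4, 659.2 and 792.6, Foxred1, a complex I factor, at 759.8, 932.5 and 1220.3, and Coa3 at 1414, 1365 and 1578.5. The first 3 of these were lowest in pool 1 and highest in pool 3. Of 11 genes of electron entry and coenzyme Q, 5 were above it on all arrays and 2 on none. Etfa, a subunit of the electron transfer flavoprotein, read 430.8, 783.9 and 437.6, and its partner Etfb read 756.9, 585.3 and 716.0. Etfdh, which passes their electrons to coenzyme Q, read 205.5, 106.6 and 78.0 and was above the limit in no pool. Gpd2, which brings in electrons from glycerol phosphate, read 434.5, 315.9 and 241.2 and exceeded it in pool 1 only.

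Of 13 genes of ATP, ADP, phosphate and proton transport, 7 exceeded the limit in every pool and 4 in none. The ADP/ATP carrier Slc25a4 read 10208, 11351 and 10680.1, and its relative Slc25a5 read 1214.5, 1846 and 1399.5. Slc25a3, the phosphate carrier, read 317.0, 312.2 and 400.9 and exceeded it in pool 3 only. Vdac1, an outer membrane channel, read 25.8, 36.9 and 127.9 and exceeded it in none. Of 14 genes of mitochondrial DNA and biogenesis, 6 were above it on all arrays and 6 on none. Tfam, which packages mitochondrial DNA, read 7.90, 71.2 and 63.9, Tfb2m, a transcription factor of the same DNA, read 177.2, 244.9 and 15.9, and Polg, its polymerase, read 43.1, 113.8 and 104.1, and none of these 3 was above the limit in any pool. Polg2, the accessory subunit of the polymerase, read 299.0, 489.9 and 691.2 and exceeded it in pools 2 and 3. Over members above the limit on average, the median deviations in pools 1, 2 and 3 were -0.12, 0.056 and 0.082 for the assembly factors. For electron entry they were -0.029, -0.024 and -0.15, and for transport -0.11, -0.040 and 0.17. For biogenesis they were -0.037, 0.20 and -0.17, and for the 4171 named genes 0.027, -0.0051 and -0.012. Pool 3, not pool 1, was thus lowest for electron entry and biogenesis.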

How the data were processed

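Each pool of wild-type retina was hybridised to 1 array. The deposited values are the authors' linear signal intensity per probe set, with the trimmed mean (2% from each end) of every array near 500.2. How probes were condensed to sets was not given in the sources used here, and no detection calls were used. Probe sets were named from the platform annotation, with symbols updated through RefSeq, and no member changed name. Of 12422 probe sets 10833 had 1 symbol, 396 several and 1193 none. Where a gene had several sets, the one with the highest mean was used. Values under 1 were set to 1 before log2, and SDs are over 3 pools (Python 3.11.15, pandas 2.3.3, numpy 2.4.6). With 1 group no test was possible, and the number of arrays limits the precision. The range and deviation steps were tested on simulated data.

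Any member could be named. Full values were due for isoform pairs, genes with several sets, the 2 smallest and 2 widest ranges of each complex, genes over a 2-fold range and genes above the limit on some arrays, with the first 4 measured genes of each pathway list. The members and lists were chosen with earlier results of these data known. Alternatives covered the scaling, floor, gene value, limit and each pool left out. Of 86 background genes written, 69 were measured.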

Additional observations from a re-analysis of the deposited data

How the results depend on the processing

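Of 263 values recomputed under other settings, 246 moved by less than a set spread or stayed within 1.5 times the count. For a median deviation that spread was the SD of the medians of the 3 pools themselves. A change nearly as large as the differences between pools could therefore count as unmoved. For the median SD the spread was the SD of its values with each pool left out. The 246 is thus no measure of how stable the deviations are. No paired analysis was possible because the pools form 1 group. The count of genes above the limit on all arrays, 56, ranged from 42 with plain _at sets alone to 71 with the 75th percentile as the limit. Genes with no plain set, such as Cox6c and Uqcrc2, drop out of the former, so it is not a count over all 80. The matching shares of all named genes were not recomputed under these settings. The 1 gene with a range over 2-fold became 2 after quantile normalization, 3 with the mean over a gene's sets, 2 with every probe set counted, 2 with the 75th percentile and 0 with the 95th, and 0 to 1 with a pool left out. The median SD of all 80 genes was 0.18 to 0.27 with a pool left out. Pool 2 was lowest for 28 of 80 genes after median scaling, against 18, and highest for 43 of 109 with every probe set counted, against 27 of 80. With a pool left out, 2 arrays share all genes, so these counts rise by construction: pool 1 was highest for 24 to 26, pool 2 lowest for 26 to 45 and highest for 35 to 54, and pool 3 lowest for 24 to 35. The median deviation of complex IV in pool 2, 0.080, reversed to -0.12 without pool 1 and was 0.18 without pool 3, and that of the assembly factors in pool 2 was 0.23 with every probe set counted, against 0.040. The causes of the changes not set by construction were not tested. A planned second background list was not run, since the first was not supplied and the second became the main one. The settings added after seeing the data were the subunit genes alone, genes with a mean signal over 1000, and deviations relative to those genes.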
